A study of Bos taurus with 10 samples.

Results

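Transcript levels of 36 aminoacyl transfer RNA synthetase genes were followed through early bovine embryos in which the oocyte's own linker histone, H1FOO, had been knocked down. The genes were taken by symbol from a table of 28700 genes, and all 36 were found there and tested: 20 for the enzymes of the cytosol and 16, with symbols ending in 2, for those of the mitochondrion. Zygotes received small interfering RNA against H1FOO (knockdown, KD) or a negative control small interfering RNA (NC). Each treatment gave 2 pooled libraries of 8/16-cell embryos on day 4 and 3 of morulae on day 5.5, counted from insemination. Both treatments were therefore injected, and no embryos without injection were among the 10 libraries.

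Aminoacyl transfer RNA synthetases attach each amino acid to its own transfer RNA, the step at which the genetic code is read into protein. The cytosol and the mitochondrion translate with separate enzymes, nearly all of them encoded in the nucleus by separate genes. GARS and KARS are exceptions, since each is known to supply both compartments, and EPRS joins the glutamyl and prolyl enzymes in one protein. Several cytosolic enzymes sit with EPRS in the multisynthetase complex on the scaffold proteins AIMP1, AIMP2 and EEF1E1. The cleavage embryo begins on synthetases and messenger RNA left by the oocyte and turns to its own transcripts when its genome is activated, which in cattle happens around the 8/16-cell stage.

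Values were deposited as FPKM, fragments scaled to the length of the transcript and to the mapped fragments of the library, so each is a share of its library. The summed FPKM of a library ran from 345464 to 669836, and read depth itself is unknown. As a check of the labels, H1FOO was at 50.8 and 10.8 FPKM after NC injection and at 0.649 and 0.0736 FPKM after KD injection in 8/16-cell embryos. NC morulae had 0.294, 1.05 and 2.17 FPKM of it, and KD morulae 0.0610, 0.191 and 0.251 FPKM. Of 7 embryo marker genes in the table, 6 reached 1 FPKM in every library, and the sperm genes PRM1, PRM2, AKAP4 and ODF1 and the leukocyte genes PTPRC, CD3E and LYZ stayed under 1 FPKM in every library. In pooled embryos, fewer cells of a type and less RNA per cell cannot be told apart. The 8/16-cell and morula columns were probably processed apart, so a difference between stages also carries any difference in processing.

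Cytosolic synthetase transcripts were several times as abundant as mitochondrial ones in each of the 10 libraries. The median cytosolic gene lay between 29.6 and 41.5 FPKM and the median mitochondrial gene between 7.25 and 11.1 FPKM, a ratio of class medians of 2.94 to 4.91. Among all genes tested the median was 7.62 to 9.75 FPKM, so the mitochondrial enzymes sat near the middle of the transcriptome. Their median percentile among tested genes was 48.5 to 51.9, against 78.9 to 84.0 for the cytosolic enzymes. Cytosolic genes held 83.6% to 86.8% of the summed FPKM of the 36 genes. On the log2(FPKM + 1) scale the class medians differed by 1.92 (SD 0.24 over the 10 libraries), a description of these libraries.

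KARS, the lysyl enzyme, was the most abundant of the 36 in all 10 libraries. NC 8/16-cell embryos had 143 and 110 FPKM of it and KD 8/16-cell embryos 109 and 132 FPKM. Morulae had 173, 122 and 150 FPKM after NC injection and 148, 126 and 126 FPKM after KD injection. The 4 groups overlapped. The 3 most abundant synthetases of a library, KARS with 2 others among QARS, NARS, WARS, AARS and FARSA, held 26.3% to 30.3% of the summed synthetase FPKM.

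At the low end of the cytosolic class were the isoleucyl enzyme IARS (8.41 and 6.76 FPKM in NC 8/16-cell embryos) and the glycyl enzyme GARS (17.8, 8.58 and 13.4 FPKM in NC morulae). GARS therefore lay far below KARS, the other enzyme known to serve both compartments. Of the mitochondrial enzymes, TARS2 for threonine was the highest in NC 8/16-cell embryos at 20.8 and 19.4 FPKM, and SARS2 for serine in NC morulae at 21.5, 13.7 and 19.1 FPKM. TARS2 itself was at 16.3, 17.9 and 13.2 FPKM there, overlapping the values of SARS2, so the order of these neighbours was not separated by their spread. EARS2, the mitochondrial glutamyl enzyme, was the lowest by mean in both NC groups, at 1.83 and 1.22 FPKM and at 2.39, 2.01 and 1.42 FPKM.

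**Figure D1:**
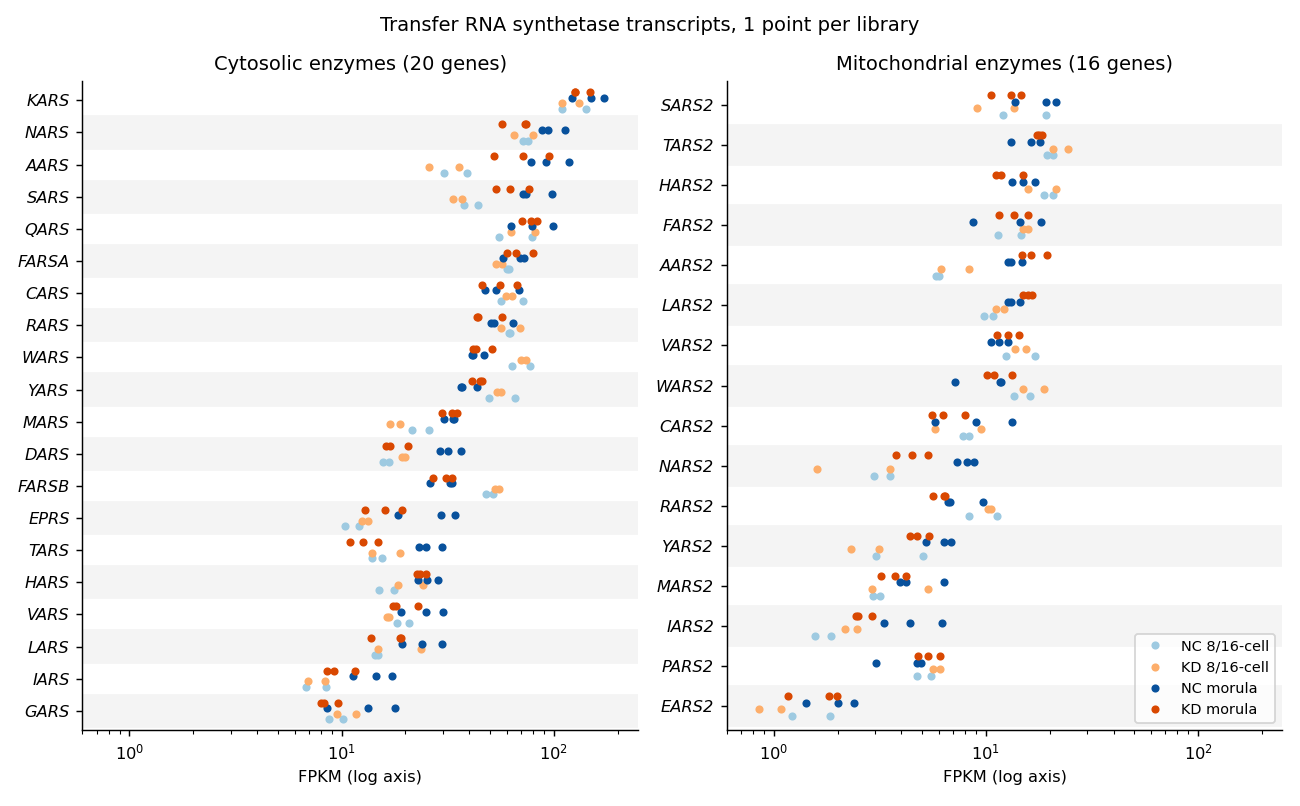
FPKM of the 36 synthetase genes on a log axis, cytosolic and mitochondrial genes in separate panels; each point is 1 of the 10 libraries, coloured by group. KARS lies at the top in every library, and every mitochondrial gene lies below the cytosolic median of 29.6 to 41.5 FPKM.

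Cytosolic and mitochondrial genes were paired by matching symbols, such as NARS with NARS2, which gave 13 pairs. The cytosolic gene was the higher in all 10 libraries for 10 of these pairs. Phenylalanine (FARSA and FARSB with FARS2), glutamate (EPRS with EARS2) and proline (EPRS with PARS2) also had genes in both classes. Their symbols do not match, so they were not among these pairs. The median ratio of cytosolic to mitochondrial FPKM over the 13 pairs was 4.74, 4.28, 4.55 and 4.50 in NC 8/16-cell, KD 8/16-cell, NC morula and KD morula libraries. Of the 13 pairs, the asparaginyl pair NARS and NARS2 was the most unequal, with mean ratios of 22.7 and 31.6 at the 8/16-cell stage and 12.2 and 15.1 in morulae. NARS exceeded NARS2 by 10.8 to 40.7 times across libraries.

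The threonyl pair crossed over. TARS was below TARS2 in 7 of the 10 libraries and above it only in the 3 NC morula libraries. The mean ratio of TARS to TARS2 was 0.73 ± 0.02 (SD, n = 2) in NC and 0.72 ± 0.08 (SD, n = 2) in KD 8/16-cell embryos. It was 1.66 ± 0.23 (SD, n = 3) in NC morulae and 0.71 ± 0.13 (SD, n = 3) in KD morulae. The histidyl pair HARS and HARS2 differed between stages instead: HARS was the higher in 8 libraries, with mean ratios of 0.83 and 1.15 in NC and KD 8/16-cell embryos and 1.72 and 1.90 in NC and KD morulae. HARS and HARS2 are known as near copies that lie side by side in mammals, so their reads may have been assigned in part to the wrong gene.

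**Figure D2:**
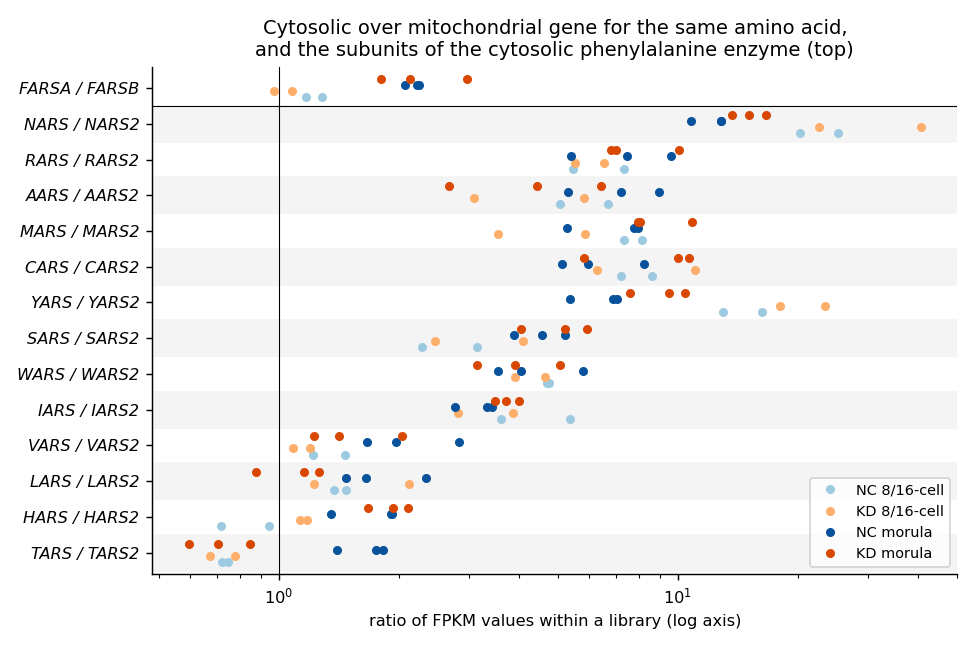
Ratio of cytosolic to mitochondrial FPKM (log axis) for the 13 pairs of genes matched by symbol, each point 1 library coloured by group, with a line at equality. The threonyl pair lies above equality only in the 3 NC morula libraries, and the asparaginyl pair lies highest.

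From the 8/16-cell stage to the morula, control embryos gained transcripts of 10 synthetases and lost transcripts of 3 (limma, adjusted p under 0.05 over all genes). In the background of 11761 tested genes, 30.8% passed in either direction, 12.6% higher and 18.2% lower. The other 23 synthetases did not pass. The median log2 difference was 0.40 for cytosolic and 0.16 for mitochondrial synthetases, beside -0.07 for all genes tested. Above 0 were 25 of the 36, and 45.6% of all genes. Every morula library was above both 8/16-cell libraries for 16 synthetases and below both for 6, which held for 24.3% and 32.6% of all genes.

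The largest rise was in AARS, the alanyl enzyme. It stood at 38.9 and 30.5 FPKM in NC 8/16-cell embryos and at 118, 91.5 and 78.2 FPKM in NC morulae. The groups did not overlap, and AARS rose 2.69-fold on the log2(FPKM + 1) scale (difference 1.43, SE 0.27, n = 2 and 3, adjusted p = 0.004). Its mitochondrial counterpart AARS2 rose with it, from 5.81 and 6.0 to 13.1, 12.7 and 14.8 FPKM (log2 difference 1.07, SE 0.19, adjusted p = 0.00294). Both alanyl enzymes were higher in every morula library than in any 8/16-cell library of either treatment.

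EPRS, which charges both glutamate and proline, stood at 10.3 and 12.1 FPKM in NC 8/16-cell embryos and at 29.5, 34.3 and 18.5 FPKM in NC morulae (log2 difference 1.18, SE 0.26, adjusted p = 0.00723). NARS2, the mitochondrial asparaginyl enzyme, went from 2.98 and 3.55 to 8.80, 7.35 and 8.13 FPKM (log2 difference 1.09, SE 0.25, adjusted p = 0.00999). IARS2, the mitochondrial isoleucyl enzyme, went from 1.57 and 1.87 to 6.24, 4.38 and 3.31 FPKM (log2 difference 1.02, SE 0.24, adjusted p = 0.0109). In all 3 genes every NC morula library lay above both NC 8/16-cell libraries.

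SARS, the seryl enzyme, stood at 44.0 and 37.7 FPKM and then at 97.8, 71.4 and 74.2 FPKM (log2 difference 0.96, SE 0.21, adjusted p = 0.00654). DARS, the aspartyl enzyme of the multisynthetase complex, went from 15.7 and 16.7 to 36.4, 29.2 and 31.9 FPKM (log2 difference 0.96, SE 0.17, adjusted p = 0.00295). Again no libraries of the 2 NC groups overlapped. The other 3 rises were in IARS (log2 difference 0.83, adjusted p = 0.0178), TARS (0.77, adjusted p = 0.0159) and HARS (0.62, adjusted p = 0.0246).

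FARSB, WARS and YARS fell. FARSB encodes the beta subunit of the cytosolic phenylalanyl enzyme, which works as a tetramer of alpha (FARSA) and beta chains. It stood at 48.0 and 51.6 FPKM in NC 8/16-cell embryos and at 32.3, 26.0 and 33.3 FPKM in NC morulae (log2 difference -0.69, SE 0.17, adjusted p = 0.0125). FARSA was at 61.5 and 60.4 and then at 72.4, 57.6 and 69.1 FPKM, overlapping between stages (log2 difference 0.12, adjusted p = 0.649). The ratio of FARSA to FARSB was thus 1.23 ± 0.0773 (SD, n = 2) in NC 8/16-cell embryos and 2.18 ± 0.0905 (SD, n = 3) in NC morulae, and it was 1.02 ± 0.0766 (SD, n = 2) and 2.30 ± 0.599 (SD, n = 3) in KD.

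WARS, the tryptophanyl enzyme, went from 77.2 and 63.7 to 47.1, 41.3 and 41.6 FPKM (log2 difference -0.69, SE 0.17, adjusted p = 0.0125). YARS, the tyrosyl enzyme, went from 65.5 and 49.3 to 36.6, 36.9 and 43.6 FPKM (log2 difference -0.53, SE 0.17, adjusted p = 0.0393). In both, each NC morula library was below each NC 8/16-cell library. None of the 3 falls passed once libraries were scaled to an equal sum of FPKM, which left 9 rises and 0 falls. With RN18S1 and the MIR2887 pair left out of that sum, a setting added after seeing the data, there were 10 rises and 2 falls. FARSB and WARS then still fell.

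AARS, AARS2 and DARS passed in NC embryos under all 22 alternatives. Leaving out NC 8/16-cell replicate 1 left 4 calls, all rises, and ended those of EPRS, NARS2, IARS2, IARS, TARS, HARS, FARSB, WARS and YARS. Leaving out NC 8/16-cell replicate 2 left 7 calls.

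In KD embryos, 4 synthetases rose between the stages and 3 fell, where 20.0% of all genes passed (5.22% higher, 14.8% lower). AARS2 rose from 8.34 and 6.15 to 14.8, 16.2 and 19.5 FPKM (log2 difference 1.12, SE 0.19, adjusted p = 0.00465). AARS rose from 25.7 and 35.9 to 95.0, 71.9 and 52.1 FPKM (log2 difference 1.19, SE 0.27, adjusted p = 0.0152). SARS rose from 33.4 and 37.0 to 76.6, 62.4 and 53.2 FPKM (log2 difference 0.83, SE 0.21, adjusted p = 0.02). The stages did not overlap in any of these genes, all of which also passed in NC embryos.

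MARS, the methionyl enzyme of the complex, rose from 18.9 and 16.9 to 33.2, 34.9 and 29.9 FPKM in KD morulae (log2 difference 0.83, SE 0.16, adjusted p = 0.00795). In NC it was at 25.9 and 21.5 and then at 33.7, 30.5 and 33.6 FPKM, a difference of 0.45 that did not pass (adjusted p = 0.0569). It passed there with an equal median (0.0233), quantile normalization (0.0264) or without NC morula replicate 2 (0.0454). It also passed with a block across stages (0.0446), where replicate numbers only share a name. The difference between treatments in its stage change did not pass (0.38, adjusted p = 0.599). FARSB fell in KD (log2 difference -0.82, adjusted p = 0.0106), as did WARS (-0.66, adjusted p = 0.0221). RARS2, the mitochondrial arginyl enzyme, went from 10.6 and 10.2 to 6.32, 6.43 and 5.65 FPKM and also fell (log2 difference -0.68, SE 0.21, adjusted p = 0.0455).

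AARS, AARS2, SARS, FARSB and WARS passed in both treatments, which is 38.5% of the NC calls and 71.4% of the KD calls. The matching shares over all genes are not given, so this overlap is not shown to be particular to synthetases. Several genes that rose in NC had small differences in KD that did not pass: DARS -0.13, TARS -0.33, IARS2 0.12 and EPRS 0.28 on the log2 scale. The median log2 difference in KD was 0.01 for cytosolic and -0.09 for mitochondrial synthetases, beside -0.18 for all genes. Above 0 were 17 of the 36, and 37.2% of all genes. The stages did not overlap for 11 synthetases that were higher and 7 that were lower, beside 16.6% and 36.7% of all genes.

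Direction of the KD stage comparison depended on scaling. Of the genes called, 26.1% were higher in morulae as deposited, 80.7% with an equal sum, 52.9% with an equal median and 52.2% with quantile normalization. The synthetase calls were then 5 rises and 0 falls, 7 rises and 1 fall, and 8 rises and 1 fall, against 4 rises and 3 falls as deposited. The median of all genes was -0.18 as deposited and 0.21 with an equal sum, where 31 synthetases lay above 0. With RN18S1 and the MIR2887 pair left out of the sum that median was -0.01. In that setting 26 synthetases lay above 0, and 4 rises and 0 falls were called. AARS2 alone passed under all 22 alternatives. Without KD 8/16-cell replicate 1 there were 2 calls, and without KD 8/16-cell replicate 2 or KD morula replicate 1 there were 3.

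**Figure D3:**
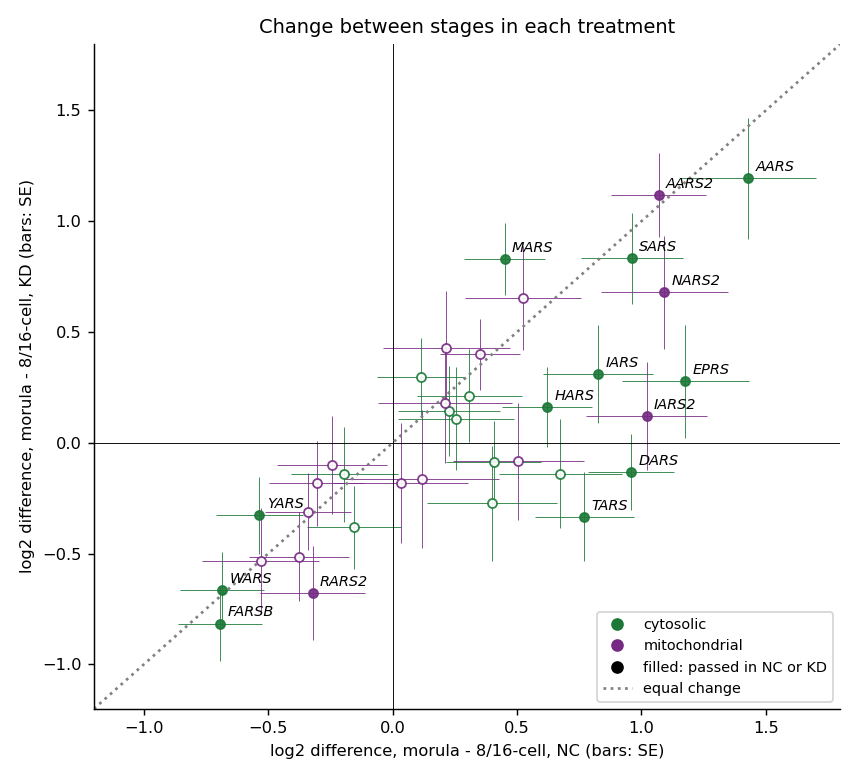
Log2 difference (morula minus 8/16-cell) of the 36 synthetases in NC and in KD embryos, with standard errors; filled points passed at an adjusted p under 0.05. AARS and AARS2 lie above 0 in both treatments, while DARS (0.96 in NC, -0.13 in KD) and TARS (0.77, -0.33) lie apart.

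Among morulae, transcripts of the aspartyl enzyme DARS and the threonyl enzyme TARS were lower in KD than in NC embryos, by just under 2-fold. These 2 genes fell and 0 synthetases rose, where 0.697% of all genes passed (0.145% higher, 0.553% lower). A further 5 synthetases had an unadjusted p under 0.05, making 7 of 36 beside 21.2% of all genes. Below 0 were 25 of the 36 differences, 16 of 20 cytosolic and 9 of 16 mitochondrial, and 57.9% of all genes. The median was -0.26 for cytosolic and -0.19 for mitochondrial synthetases and -0.08 for all genes.

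DARS stood at 36.4, 29.2 and 31.9 FPKM in NC morulae and at 20.5, 16.8 and 16.1 FPKM in KD morulae. Every KD library was below every NC library, a 1.78-fold fall on the log2(FPKM + 1) scale (-0.83, SE 0.15, 3 libraries each, limma adjusted p = 0.0427). TARS stood at 29.7, 25.1 and 23.1 FPKM in NC and at 14.8, 12.6 and 10.9 FPKM in KD. Here too the groups did not overlap, and TARS fell 1.96-fold (-0.97, SE 0.18, 3 libraries each, adjusted p = 0.0427). In 8/16-cell embryos of both treatments DARS had been at 15.7 to 19.9 FPKM and TARS at 13.9 to 18.9 FPKM.

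Both calls were close to the threshold. Over the 22 alternatives the adjusted p ran from 0.00799 to 0.332 for DARS and from 0.00563 to 0.343 for TARS, and each passed in 5. Leaving out any library other than KD morula replicate 1 ended both calls. Over all 10 libraries left out in turn, the log2 differences ran from -0.93 to -0.75 for DARS and from -1.08 to -0.87 for TARS. Scaling to an equal sum or an equal median also ended them, and equal-median scaling moved the higher share of all calls from 20.7% to 38.9%. The median of all genes was then 0.04, and 15 synthetases lay above 0 where 11 had.

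Same-numbered NC and KD morula libraries deviated together, and with the replicate number as a block 5 synthetases fell, where 11.9% of all genes passed (3.89% higher, 8.00% lower). They were DARS (adjusted p = 0.00799) and TARS (0.00563) with NARS2 (0.0417), EPRS (0.0278) and NARS (0.0394). Without the block these last 3 did not pass. NARS2 stood at 8.80, 7.35 and 8.13 FPKM in NC and at 5.37, 4.47 and 3.77 FPKM in KD, without overlap (log2 difference -0.72, SE 0.23, adjusted p = 0.116). NARS, the cytosolic asparaginyl enzyme, was at 113, 94.3 and 87.8 FPKM in NC and at 73.3, 74.4 and 56.9 FPKM in KD, again without overlap (-0.52, SE 0.17, adjusted p = 0.122). EPRS was at 29.5, 34.3 and 18.5 FPKM in NC and at 19.2, 16.0 and 12.9 FPKM in KD, and its groups overlapped (-0.71, SE 0.23, adjusted p = 0.122).

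**Figure D4:**
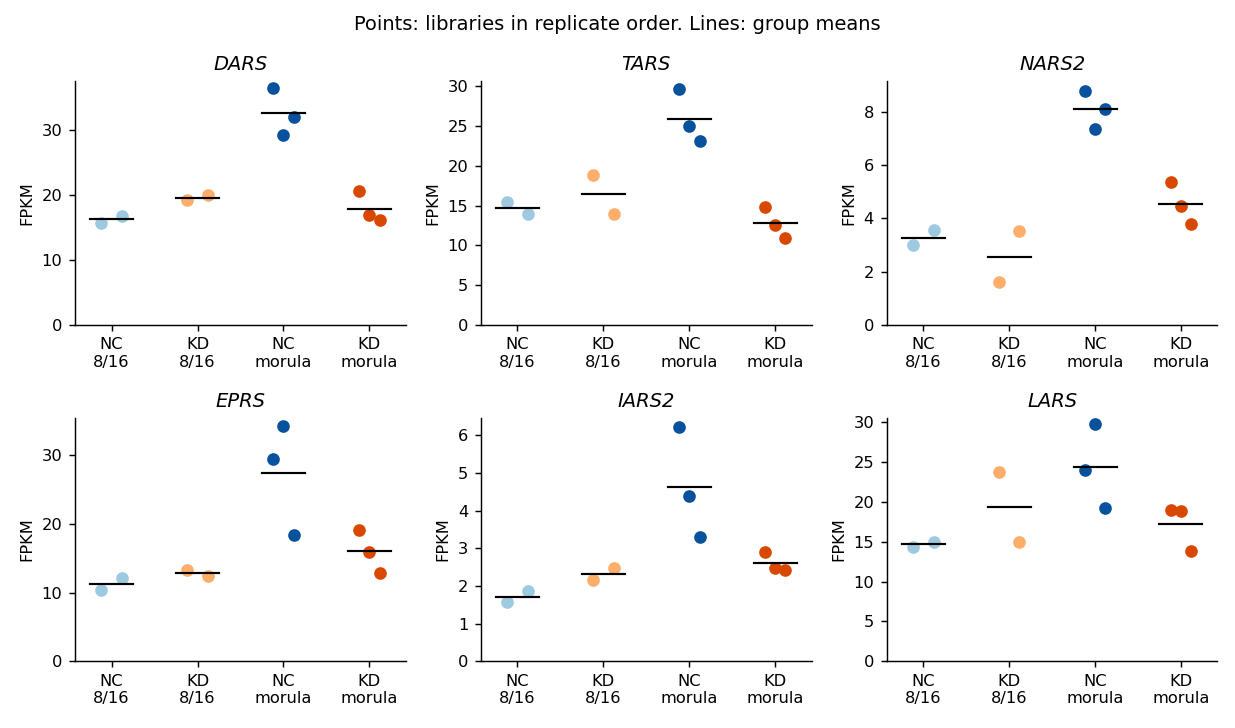
FPKM of DARS, TARS, NARS2, EPRS, IARS2 and LARS in each library, points in replicate order and lines at group means. For DARS and TARS the 3 NC morula libraries lie above all 7 others.

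For 7 synthetases all KD morula libraries were below all NC ones, and for 2 they were above, beside 15.3% and 8.44% of all genes. The 7 were DARS, TARS, NARS2 and NARS with IARS2, LARS and RARS2. IARS2 was at 6.24, 4.38 and 3.31 FPKM in NC and at 2.90, 2.49 and 2.44 FPKM in KD morulae (log2 difference -0.61, SE 0.22, adjusted p = 0.149). LARS, the leucyl enzyme, was at 24.0, 29.7 and 19.2 FPKM in NC and at 19.0, 18.8 and 13.8 FPKM in KD morulae (-0.47, SE 0.22, adjusted p = 0.25). The gap between the groups was narrow in LARS, at 19.2 against 19.0 FPKM. The 2 that were higher in KD were AARS2 (log2 difference 0.29) and LARS2 (0.21), both mitochondrial, and neither passed.

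Several cytosolic means were nearly equal between the morula treatments. CARS, MARS and FARSB, for cysteine, methionine and phenylalanine, had log2 differences of 0.00 with standard errors of 0.19, 0.15 and 0.15. Over all 36 the largest positive difference was 0.31, in the mitochondrial prolyl enzyme PARS2 (adjusted p = 0.396). Within the cytosolic class it was 0.17.

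Other transcripts differed alongside in morulae. The ribosomal RNA gene RN18S1 was at 2704, 2983 and 8611 FPKM in NC and at 9053, 8553 and 11581 FPKM in KD libraries, a difference of 1.23 that passed with the block alone (adjusted p = 0.194, with the block 0.0386). With RN18S1 as a covariate, a fit added after seeing the data, the DARS difference was -0.82 and the TARS difference -0.80, and neither passed (adjusted p = 0.332 and 0.343). The cumulus and granulosa markers, 17 genes summed, were at 68.3 to 84.9 FPKM in NC and 62.0 to 115 FPKM in KD morulae. Without the block 0 of the 11 tested ones passed, 8 lay above 0 and the median was 0.66, beside -0.08 for all genes. With the block VIM, CYP11A1 and COL1A1 rose and SERPINE2, which holds much of the sum, fell. In that setting 3.89% of all genes rose and 8.00% fell. VIM was at 0.346, 5.40 and 5.42 FPKM in NC and at 3.44, 11 and 43.3 FPKM in KD (adjusted p = 0.212, with the block 0.00881). SERPINE2 was at 75.8, 50.1 and 45.0 FPKM in NC and at 45.9, 23.4 and 35.0 FPKM in KD (adjusted p = 0.149, with the block 0.0254), and FSHR was at 0 in every library.

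Embryo markers differed as well. None of the 7 passed without the block, while with it NANOG and KHDC3L rose and POU5F1, CDX2 and GATA3 fell. Of all genes 3.89% rose and 8.00% fell with the block, against 0.145% and 0.553% without it. CDX2, a trophectoderm factor, was at 11.7, 6.13 and 9.68 FPKM in NC and at 2.34, 1.88 and 1.23 FPKM after knockdown (-1.83 on the log2 scale, adjusted p = 0.0559, with the block 0.0151). NANOG, a pluripotency factor, was at 6.48, 14.4 and 18.8 FPKM in NC and at 25.4, 39.0 and 37.8 FPKM in KD (1.39, adjusted p = 0.0724, with the block 0.00506). Neither gene's treatments overlapped, CDX2 being lower and NANOG higher in KD. The part of the cumulus and embryo markers in the DARS and TARS differences was not tested.

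**Figure D5:**
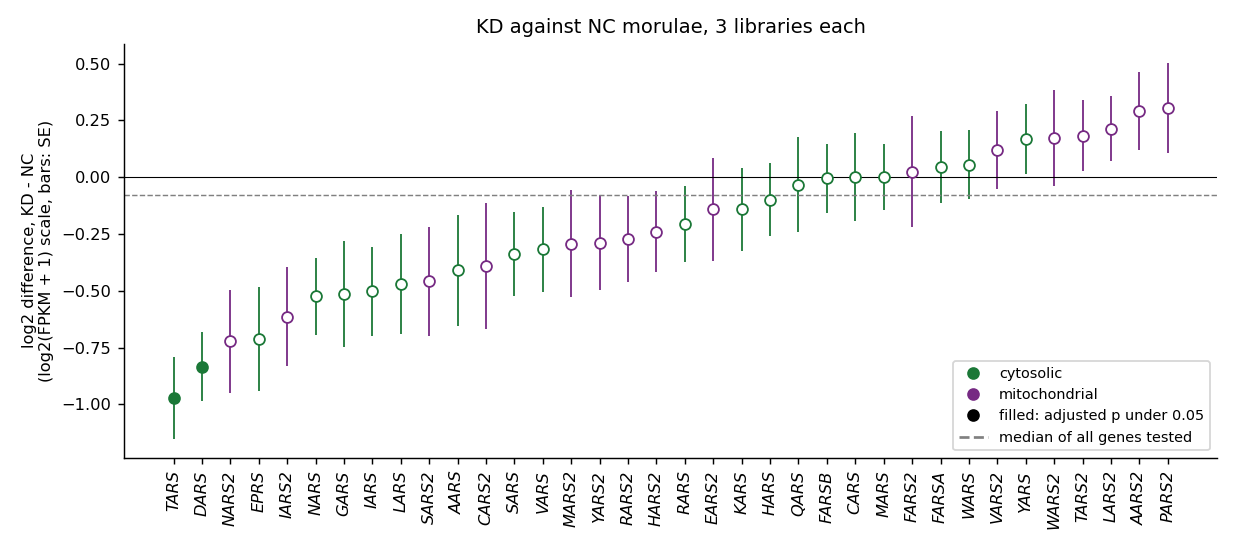
Log2 difference (KD minus NC, morula) of the 36 synthetases with standard errors, filled where the adjusted p was under 0.05. DARS (-0.83) and TARS (-0.97) lie lowest in the cytosolic class, and 25 of the 36 points lie below 0.

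At the 8/16-cell stage no synthetase passed between KD and NC embryos in limma, and 0 had an unadjusted p under 0.05. Of all genes 0.0170% passed and 4.37% had an unadjusted p under 0.05. Differences were above 0 for 20 synthetases and below 0 for 16 (52.1% and 47.2% of all genes), with medians of 0.02 for cytosolic and 0.12 for mitochondrial genes and 0.01 for all genes. The KD and NC libraries did not overlap for 10 synthetases that were higher and 5 that were lower in KD, where 2 libraries per group give this for 19.3% and 13.9% of all genes. The 17 cumulus and granulosa markers summed to 96.0 and 99.7 FPKM in NC and to 147 and 152 FPKM in KD 8/16-cell libraries. Of the 11 tested ones 0 passed, while 7 were higher and 1 lower in KD without overlap (median 0.52). Their part in the synthetase differences at this stage was not tested.

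The smallest p-values there belonged to MARS, HARS, YARS2 and SARS2, all with an adjusted p of 1. MARS was at 25.9 and 21.5 FPKM in NC and at 18.9 and 16.9 FPKM in KD libraries (-0.38 on the log2 scale, SE 0.18). HARS was at 17.7 and 14.9 FPKM in NC and at 24.1 and 18.5 FPKM in KD libraries (0.36, SE 0.20). In both the groups did not overlap, with KD lower for MARS and higher for HARS. YARS2, the mitochondrial tyrosyl enzyme, had a difference of -0.42 (SE 0.25), and SARS2 one of -0.43 (SE 0.30), with overlapping libraries. With an equal sum of FPKM 1 synthetase lay above 0, beside a median of all genes of -0.32. With RN18S1 and the MIR2887 pair left out of the sum, 15 lay above 0, beside a median of -0.08.

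The change in the treatment difference from one stage to the next was tested as an interaction, and 0 of 36 synthetases passed, with 0.0170% of all genes passing. An unadjusted p under 0.05 was found for 5 synthetases, beside 9.39% of all genes. Interactions were below 0 for 24 of the 36 and 58.5% of all genes. They were above 0 for 25 with an equal sum of FPKM, where the median of all genes was 0.29. With RN18S1 and the MIR2887 pair left out of the sum, 20 lay above 0 and that median was 0.07. The 5 were DARS (interaction -1.09, SE 0.24, adjusted p = 0.435), TARS (-1.10, SE 0.28, 0.435), IARS2 (-0.90, SE 0.34, 0.496), EPRS (-0.90, SE 0.36, 0.505) and LARS (-0.81, SE 0.35, 0.518). DARS, IARS2 and LARS stood above NC in both KD libraries at the 8/16-cell stage and below NC in all 3 KD libraries as morulae. For LARS both gaps were narrow. The nearest KD and NC libraries were at 14.92 and 14.91 FPKM at the 8/16-cell stage and at 19.0 and 19.2 FPKM in morulae. For DARS the 8/16-cell levels were 15.7 and 16.7 FPKM without the knockdown and 19.2 and 19.9 FPKM with it. For DARS and TARS the treatment difference in morulae is therefore not shown to differ from that at the 8/16-cell stage.

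The cytosolic class divides into enzymes of the multisynthetase complex and free enzymes. Of the 8 complex members (EPRS, IARS, LARS, MARS, QARS, RARS, KARS and DARS), 1 fell in KD morulae, with a median log2 difference of -0.34. Of the 12 free enzymes 1 also fell, TARS, with a median of -0.21. With the replicate block, where 8.00% of all genes fell, 2 of each fell, DARS and EPRS in the complex and TARS and NARS among the free enzymes. Between the NC stages 3 complex members rose and 0 fell, while 4 free enzymes rose and 3 fell, where 12.6% of all genes rose and 18.2% fell. By catalytic fold, both genes that fell in KD morulae, DARS and TARS, belong to class II, where, with EPRS left out because it holds both folds, 9 of 10 cytosolic genes were below 0 (median -0.37). In class I 6 of 9 were below 0 (median -0.03). Of all genes 57.9% were below 0, with a median of -0.08, and neither the complex against the free enzymes nor the folds were tested against each other.

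None of the 3 scaffold genes of the complex passed between the morula treatments. AIMP1 was at 70.8, 82.1 and 95.1 FPKM in NC libraries, against 58.5, 62.1 and 73.4 FPKM in KD morulae (log2 difference -0.35, adjusted p = 0.272). For AIMP2 the difference was 0.12 (adjusted p = 0.774) and for EEF1E1 -0.26 (adjusted p = 0.44).

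Of 10 further charging genes outside the 36, 7 were tested. None passed between the morula treatments, and 6 lay below 0, beside 57.9% of all genes. QRSL1, a subunit of the amidotransferase by which mitochondria make glutaminyl transfer RNA, rose between the NC stages (log2 difference 1.13, adjusted p = 0.00399). It was at 1.88 and 2.58 FPKM and then at 6.90, 6.66 and 4.79 FPKM.

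None of the 21 tested genes of transfer RNA proofreading, maturation and export passed between the morula treatments, and 16 lay below 0 (median -0.17), beside 57.9% of all genes and a median of -0.08. XPOT, the exporter of transfer RNA from the nucleus, was at 22.1, 18.4 and 17.1 FPKM in NC and at 14.6, 11.3 and 7.11 FPKM in KD morulae (log2 difference -0.79, SE 0.23, adjusted p = 0.102). Its groups did not overlap, and it passed with the replicate block (adjusted p = 0.0214), where 8.00% of all genes fell. The 19 genes of RNA polymerase III, which transcribes transfer RNA, had a median of 0.06 with 0 calls. Among cytosolic elongation factors, 0 of 6 passed without the block, and EEF1G (-0.74, adjusted p = 0.133) and EEF1B2 (-0.49) passed with it (adjusted p = 0.0188 and 0.034). Here too 8.00% of all genes fell with the block. Of 9 mitochondrial translation factors 0 passed, with a median of -0.32.

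Uncharged transfer RNA activates the kinase GCN2 (EIF2AK4), and the transcription factor ATF4 downstream of it is known to induce many cytosolic synthetase genes. Of 21 tested genes of this amino acid response, 0 passed between the morula treatments. With the block 2 rose and 2 fell, beside 3.89% and 8.00% of all genes. ATF4 was at 112, 96.5 and 101 FPKM in NC and at 143, 145 and 200 FPKM in KD morulae (log2 difference 0.64, SE 0.18, adjusted p = 0.0909, with the block 0.0269). EIF2AK4 was at 12.2, 11.9 and 6.87 FPKM in NC and at 6.35, 5.10 and 4.04 FPKM in KD morulae (-0.85, SE 0.23, adjusted p = 0.0872, with the block 0.0172). Neither gene's groups overlapped, ATF4 being higher and EIF2AK4 lower in KD.

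DDIT4, a stress-induced inhibitor of growth signalling, was at 42.9, 53.9 and 32.9 FPKM in NC and at 25.7, 25.0 and 18.2 FPKM in KD morulae (log2 difference -0.87, SE 0.21, adjusted p = 0.068, with the block 0.0103). PPP1R15A, which reverses the kinase's action, had a difference of 0.65 (SE 0.18, adjusted p = 0.0843, with the block 0.0236). The 6 tested amino acid transporters had a median of -0.21 with 0 calls. With the block, where 3.89% of all genes rose, SLC1A5, a glutamine carrier, rose (0.63, adjusted p = 0.205, with the block 0.0219). It was at 90.4, 118 and 174 FPKM in NC and at 138, 221 and 225 FPKM in KD, with overlap. In NC embryos EIF2AK4 and DDIT4 rose from the 8/16-cell stage to the morula (log2 differences 1.31 and 1.45, adjusted p = 0.00494 and 0.00184). ATF4 and PPP1R15A fell over the same interval (-0.87 and -0.91, adjusted p = 0.00905 and 0.00679), over which 10 synthetases rose and 3 fell. They were among 6 falls of the 21 tested response genes, beside 2 rises, where 18.2% of all genes fell and 12.6% rose. Of these 21 genes 6 lay above 0, beside 45.6% of all genes.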

How the data were processed

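Poly(A)-selected RNA of 10 pooled bovine embryo libraries was sequenced after Picopure isolation, oligo(dT) capture and NEBNext Ultra preparation, per the labels' protocols, which do not state strand. Trimmomatic, HISAT2, featureCounts and Cufflinks with ARS-UCD1.2 and bosTau9 are named in the submitters' processing notes, without versions or steps. The authors deposited FPKM values, 39911 lines and 28781 symbols. The 81 symbols on several lines (11211 lines) were left out: all 81 repeat 1 row in the 8/16-cell columns, while 75 have several distinct morula rows. Every column was matched to a sample, and 0 were left over. Without counts the depth is unknown; steps between low values put relative depths at 0.712 to 1.44.

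Of 28700 genes, 11761 that averaged 1 FPKM or more were tested on log2(FPKM + 1) with limma 3.58.1 (R 4.3.3): limma-trend, 4 group means in 1 fit of 10 libraries, 6 residual and 4.63 prior degrees of freedom, two-sided p adjusted by Benjamini-Hochberg over all tested genes, threshold 0.05. A log2 difference on this scale understates the change of low genes. The labels do not say that libraries were separate collections, so a p-value here covers the spread between libraries, which may be technical. The method was checked on simulated data. Tables and plots used pandas 2.3.3 and matplotlib 3.10.9 in Python 3.11.15.

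The 36 genes and 12 gene lists were chosen with earlier results of these data known. Named were all that passed in a comparison (the 6 largest rises and 6 largest falls where over 12 passed, up to 4 of smallest p where under 4 did), the extremes of each class, and up to 4 of each list; others are named where they bear on these. A gene of these lists is not reported here. Against RefSeq names of ARS-UCD2.0, another build, 18 of the 36 symbols were unchanged, 16 renamed and 2 unmatched.

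Replicate numbers are shared by treatments. Deviations from group means correlated across genes in all 3 same-numbered morula pairs (r = 0.37, 0.325 and 0.312), which were taken as pairs. The 8/16-cell numbers (r = 0.0558) and the numbers across stages were not. The block fit of the treatments nevertheless held replicate terms at the 8/16-cell stage as well. It left 3 residual degrees of freedom against 6 in the main fit. Alternatives changed the pseudocount (0.1, 5), the filter (none, 5 FPKM), the scaling (equal sum, equal median, quantile), the variance trend, the groups fitted, the replicate block and each library in turn; 2 on RN18S1 were added after seeing the data.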

Additional observations from a re-analysis of the deposited data

How the results depend on the processing

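For KD against NC morulae, 2 synthetases passed as reported and 5 with the replicate block. The count was 0 without a filter, with an equal sum of FPKM, an equal median or quantile normalization, without the variance trend, with the compared groups alone, with RN18S1 as a covariate and with an equal sum without RN18S1 and the MIR2887 pair (the last 2 chosen after seeing the data), and 0 to 2 with 1 library left out. Among all genes the 82 calls became 1398 with the block, 527 without KD morula replicate 1 and 0 with the compared groups alone. Over all alternatives the calls among all genes ranged from 1 to 11 for KD against NC at the 8/16-cell stage (2 as reported), from 2 to 32 for the interaction (2), from 1406 to 4592 between NC stages (3626) and from 693 to 3529 between KD stages (2355). Between NC stages the 13 synthetase calls became 4 to 14 with 1 library left out. Between KD stages the 7 became 2 to 7, and 4 with the equal sum without RN18S1 and the MIR2887 pair. The log2 difference between class medians (1.92) was 1.57 with a pseudocount of 5 and 1.45 at a mean of at least 5 FPKM. No call of a synthetase reversed under any alternative run. The block across stages rests on numbers that only share a name. With it 17 synthetases passed in NC (13 rose, 4 fell) and 8 in KD (4 each). In that setting 4592 of 11761 genes passed in NC (2018 higher, 2574 lower) and 3529 in KD (1082 higher, 2447 lower). The block within stages gave 0 synthetases at the 8/16-cell stage and 0 in the interaction, beside 3 and 32 of all genes. With 1 library left out, the spread of a lone 8/16-cell library was taken from the remaining groups. FPKM without depth gives no counting error for low genes such as EARS2 and IARS2.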
